A study of Mus musculus with 8 samples.

Results

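Type I interferon-stimulated genes were followed in Kupffer cells, macrophages that reside in liver sinusoids, early after the onset of abdominal sepsis. The members are 37 genes chosen by name, and each symbol was matched to 1 Ensembl gene ID of the deposited count table. All 37 were among the 55414 IDs of that table, and all 37 were among the 14655 genes that passed the count filter. Wild-type mice of strain C57BL/6J supplied the livers, and the cells were sorted by flow cytometry, 4 libraries per group. CLP mice had their caecum ligated and punctured, which lets intestinal bacteria leak into the peritoneal cavity, and Sham mice had the control operation. Both groups carried the same genotype and both were sampled 2 h after surgery. No label says that each library was a separate mouse, so the p-values describe the spread between these libraries.

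Type I interferons are secreted when receptors such as TLR4, RIG-I or cGAS detect microbial products. They bind the receptor IFNAR1/IFNAR2, whose kinases JAK1 and TYK2 phosphorylate STAT proteins. STAT2 and IRF9 are parts of a complex, ISGF3, that binds the interferon-stimulated response element in promoters and switches on antiviral genes. Some of these genes can also be induced directly by IRF3 or NF-kB, before any interferon has been made. In the liver, Kupffer cells are among the first cells to meet bacterial products carried in the portal blood.

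Promoter windows are shown for the 2 largest rises and the 2 largest falls among well-expressed members that have an entry in the RefSeq promoter table, so that rising and falling members can be compared. Each window runs from 250 bases before to 50 bases after the annotated start, 5′ to 3′ along the gene, on build GRCm38.p6. Capitals mark matches on either strand to the core of the interferon-stimulated response element (GAAA, any 2 bases, GAAA) or to a form of the NF-kB site (GGGA, any 2 bases, TTCC). Positions count from the annotated start, and negative ones lie before it.
Ifi205, higher in CLP, chr1:174031706-174032005, minus strand: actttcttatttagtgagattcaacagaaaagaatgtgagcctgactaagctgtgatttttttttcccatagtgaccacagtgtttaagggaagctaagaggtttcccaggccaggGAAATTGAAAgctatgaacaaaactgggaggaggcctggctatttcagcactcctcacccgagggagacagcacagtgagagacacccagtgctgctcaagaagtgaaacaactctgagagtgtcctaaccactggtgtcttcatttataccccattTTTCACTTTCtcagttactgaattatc
Cxcl10, higher in CLP, chr5:92348840-92349139, minus strand: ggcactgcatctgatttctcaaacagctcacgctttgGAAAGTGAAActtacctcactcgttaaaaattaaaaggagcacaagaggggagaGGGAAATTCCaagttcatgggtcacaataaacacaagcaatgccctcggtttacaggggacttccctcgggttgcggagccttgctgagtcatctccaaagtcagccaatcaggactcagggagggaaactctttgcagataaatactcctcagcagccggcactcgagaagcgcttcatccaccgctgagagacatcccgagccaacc
Cmpk2, lower in CLP, chr12:26468965-26469264, plus strand: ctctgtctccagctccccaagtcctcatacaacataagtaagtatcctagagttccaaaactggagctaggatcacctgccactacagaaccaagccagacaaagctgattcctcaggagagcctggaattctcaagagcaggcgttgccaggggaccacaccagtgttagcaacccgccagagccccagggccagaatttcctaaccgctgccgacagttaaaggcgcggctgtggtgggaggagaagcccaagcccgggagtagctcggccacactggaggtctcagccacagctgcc
Ifit3, lower in CLP, chr19:34583279-34583578, plus strand: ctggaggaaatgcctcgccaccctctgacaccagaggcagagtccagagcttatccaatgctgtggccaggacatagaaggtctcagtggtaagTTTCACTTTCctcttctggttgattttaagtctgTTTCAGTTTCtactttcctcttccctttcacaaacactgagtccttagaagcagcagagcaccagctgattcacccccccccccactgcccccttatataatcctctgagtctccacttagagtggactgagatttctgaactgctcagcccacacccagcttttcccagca
Ifi205 held the response element at position -134 as GAAATTGAAA and again at position 24 on the opposite strand as TTTCACTTTC. Cxcl10 held it at position -213 as GAAAGTGAAA, and the NF-kB letters GGGAAATTCC at position -159. Ifit3, which fell, held 2 matches on the opposite strand, TTTCACTTTC at position -156 and TTTCAGTTTC at position -122. The window of Cmpk2 held none of these letters, which says nothing about other windows or other forms of the motif.

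Of 26 members with a promoter entry, 15 (57.7%) held the response element, against 3.99% of all 27025 genes in the table. The letters were present in 8 of 11 rising members, 2 of 3 falling members and 5 of 12 members that did not pass the test, so they were found in members of every outcome. TTCNNNGAA, the gamma-activated site, was found in 5 of the 26 (19.2%, against 9.55% of all genes). The NF-kB letters were found in 3 of the 26, the rising Cxcl10 and Isg20 and Ifit2, which did not pass the test, a share of 11.5% against 1.63%. These motifs differ in their letters, but matches may overlap. A match is a description of sequence and not a site shown to be bound.

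The 8 libraries held 23311897 to 28724875 counts. Levels are in CPM, counts scaled to a common library size with factors from the trimmed mean of M-values (TMM), which sets libraries against their common middle rather than their totals. Over all genes CLP replicate 1 stood somewhat apart, with a correlation of log2 levels of 0.968 to 0.972 with the other CLP libraries, which correlated among themselves at 0.986 to 0.987, and results that rest on it are given with and without it. Kupffer cell markers such as Clec4f and Cd5l were abundant, with 12 of 12 tested and summed levels of 35860.0 to 46670.0 CPM after CLP against 27350.0 to 35210.0 CPM after sham surgery. Of 13 neutrophil markers 9 were tested and called higher, but Ngp, Ltf, Cxcr2 and Retnlg would not have passed the count filter on the Sham libraries alone, so that share is not read. S100a8 and S100a9 averaged 51.9 and 62.2 CPM after CLP against 1.23 and 1.32 CPM after sham surgery. The neutrophil sum was 239 to 582 CPM after CLP against 101 to 138.5 CPM, with CLP replicate 1 the lowest CLP library, and most of the Sham sum was Csf3r (246.5 against 99.2 CPM). Of 6 platelet markers 5 were tested and called higher, Gp9 and Treml1 only through the CLP libraries, Gp1bb was at 0, and the sums of 118 to 192 against 15.2 to 27.8 CPM were mostly Pf4 (148 against 18.1 CPM). Monocyte markers summed to 14.9 to 34.9 CPM after CLP against 20.6 to 32.9 CPM, and T and NK cell markers to 1.78 to 4.63 CPM and 0.611 to 1.31 CPM, 0 of 9 being tested. Of 7 plasmacytoid dendritic cell markers only the broadly expressed Tcf4 was tested and did not pass (104 against 127 CPM), and it made up nearly all of the sums of 95.4 to 120.4 against 117 to 143 CPM. The other 6 were scarce, Siglech at 0.202 against 0.181 CPM. Markers of conventional dendritic cells summed to 10.6 to 16.6 CPM after CLP against 22.3 to 41.0 CPM, those of B cells to 23.6 to 34.6 against 9.29 to 14.3 CPM, those of stellate cells to 44.2 to 64.1 against 33.8 to 42.1 CPM and erythroid ones to 8.2 to 15.0 against 3.52 to 9.27 CPM, with Hba-a2 at 0. Hepatocyte and endothelial sums overlapped between the groups, at 2557 to 3424 against 1813 to 2671 CPM and 699 to 715 against 594.5 to 723 CPM. The part of these cells in the members' values was not tested.

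At 2 h after CLP the members did not move together. Of the 37, 15 (40.5%) rose, 3 (8.11%) fell and 19 did not pass an adjusted p of 0.05 in edgeR's quasi-likelihood test. Across all genes tested, 24.9% rose and 29.5% fell. The median log2 fold change, CLP over Sham, was 0.21 over the members and -0.04 over all genes. Rises of at least 2-fold numbered 11, and 1 fall was that large. Cxcl11 passed the count filter only through its CLP libraries and so could only be called higher. Without it, 14 of 36 members (38.9%) rose, 10 of them at least 2-fold, and the median was again 0.21. In 12 members, Cxcl11 included, all 4 CLP libraries lay above all 4 Sham libraries, against 22.1% of all genes, and in 2 members all lay below, against 27.3%. In sorted bulk cells, fewer cells that express a gene and less RNA of it per cell cannot be told apart.

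**Figure D1:**
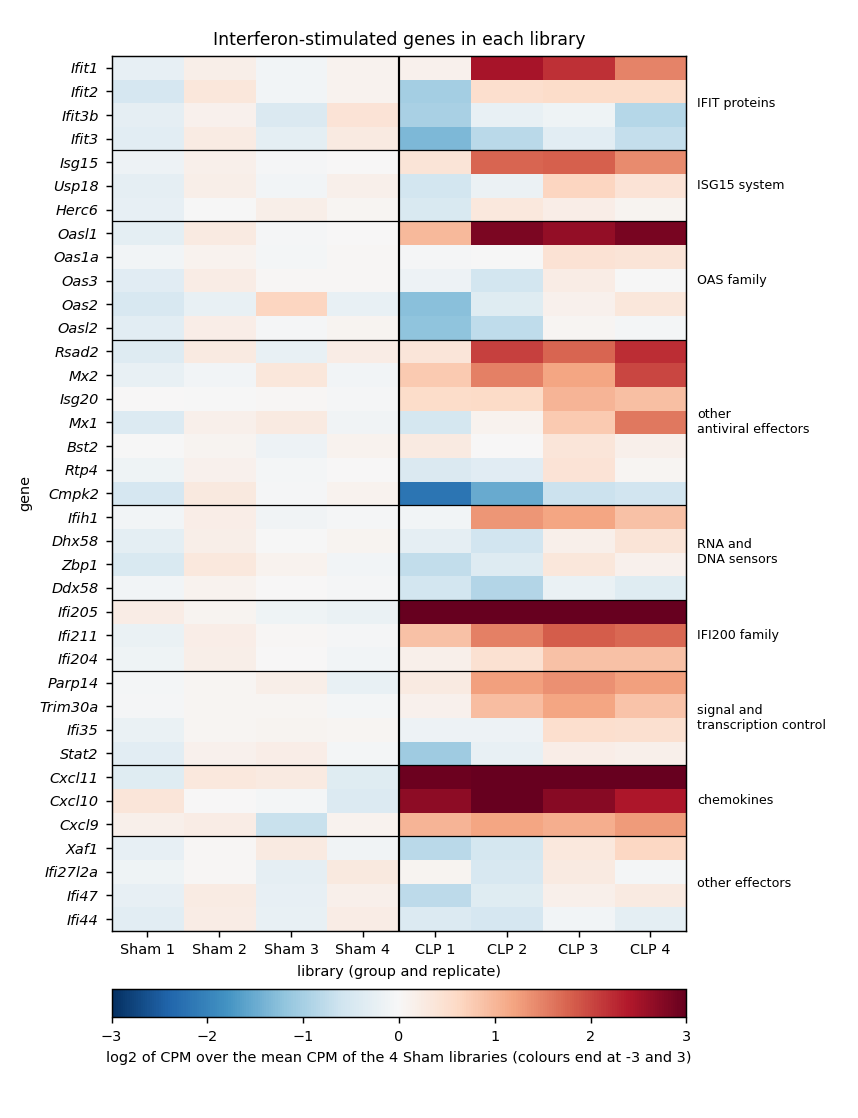
Level of each of the 37 genes (rows, grouped by role) in each of the 8 libraries (columns), as the log2 of its CPM over the mean of the 4 Sham libraries, with red above and blue below that mean. Ifi205, Cxcl10, Cxcl11 and Oasl1 are red in all 4 CLP libraries, Cmpk2 is blue in all 4, and CLP replicate 1 is the lowest CLP library in 29 of the 37 rows.

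Of the chemokines, Cxcl10 and Cxcl9 rose, and Cxcl11 was too scarce in Sham for its test to count. CXCL9, CXCL10 and CXCL11 attract activated T cells and NK cells through the receptor CXCR3. Cxcl10 (ENSMUSG00000034855) stood at 160.2, 248, 167 and 135 CPM in CLP replicates 1 to 4 and at 32.2, 25.1, 23.9 and 18.8 CPM in Sham replicates 1 to 4. The groups were far apart, with a log2 fold change of 2.83 ± 0.22 (SE; edgeR adjusted p = 5.7e-06). Cxcl9 was at 49.5, 54.8, 51.5 and 59.0 CPM in the CLP libraries and at 27.0, 28.5, 15.4 and 26.3 CPM in the Sham libraries. Its 4 CLP values were the closest together of all 37 genes, with a coefficient of variation of 7.67%, and its log2 fold change was 1.14 ± 0.18. Cxcl11 was scarce, at 1.5, 2.88, 3.44 and 6.63 CPM after CLP and 0.153, 0.244, 0.235 and 0.153 CPM after sham surgery. It had 302 counts in CLP and 25 in Sham. No Sham library reached the level the count filter asks for, so it was tested only because it is high in CLP, and its values are given with no test. C57BL/6 mice are known to carry a Cxcl11 allele that gives no functional protein.

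Of the IFI200 family, whose proteins bind DNA and regulate inflammation and transcription, the 3 members rose (100%, against 24.9% of all genes). The rest of the family was mixed. Among 6 family genes outside the 37, Ifi207 and Ifi203 rose (log2 fold changes 0.93 and 0.57), Aim2 fell by 1.17, and Mndal (-0.14), Ifi209 (0.07) and Ifi213 (-0.41) did not pass. By total counts Ifi203 was at 0.01 and did not pass, Ifi209 was at -0.49, and Mndal (-0.70) and Ifi213 (-0.97) were called lower. The edgeR call of Ifi203 was also lost in 5 of 8 fits that left out 1 library, without CLP replicate 2, 3 or 4 or Sham replicate 1 or 4 (adjusted p = 0.054 to 0.0817). Ifi205 (ENSMUSG00000054203) reached 897, 1352, 1638 and 1577 CPM in the CLP libraries from 88.7, 80.6, 69.1 and 66.1 CPM in the Sham libraries. All CLP values were above all Sham values (log2 fold change 4.17 ± 0.22, edgeR adjusted p = 1.1e-06). Ifi211 was at 125, 194, 239.5 and 225 CPM after CLP and at 58.7, 77.8, 68.9 and 65.6 CPM after sham surgery, again without overlap (log2 fold change 1.53 ± 0.19, edgeR adjusted p = 8.2e-05). Ifi204 was already abundant in Sham, at 400.1, 497, 444 and 418 CPM, and stood at 489.8, 606, 816 and 808 CPM after CLP. Its lowest CLP value, in replicate 1, lay within the Sham range, and the log2 fold change was 0.63 ± 0.17 (edgeR adjusted p = 0.00988). These genes lie together on chromosome 1 and are similar in sequence, so the division of reads among them is uncertain.

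Among the IFIT proteins, which bind foreign RNA and block its translation, neighbours went separate ways: Ifit1 rose, Ifit3 fell, and Ifit2 and Ifit3b did not pass. Ifit1 (ENSMUSG00000034459) was at 35.5, 182.5, 150.0 and 92.0 CPM in the CLP libraries and 27.4, 36.9, 31.1 and 35.4 CPM in the Sham libraries. CLP replicate 1 lay within the Sham range, and the other 3 lay well above it (log2 fold change 1.81 ± 0.39, edgeR adjusted p = 0.00283). Ifit2, the IFIT gene with the most reads, stood at 91.0, 263, 271 and 271 CPM after CLP and 129, 235, 176 and 198 CPM after sham surgery. It was below every Sham library in CLP replicate 1 and above every Sham library in the other 3. Its log2 fold change of 0.28 ± 0.31 did not pass (edgeR adjusted p = 0.468), while without CLP replicate 1 it was 0.54 and passed (adjusted p = 0.0192). Leaving out any other library gave 0.16 to 0.43, and none of those fits passed. Ifit3 (ENSMUSG00000074896) was lower after CLP, at 42.0, 61.2, 86.0 and 65.3 CPM, against 85.7, 127, 87.5 and 130.2 CPM in Sham. CLP replicate 3 just reached into the Sham range, and the log2 fold change was -0.76 ± 0.22 (edgeR adjusted p = 0.0135). Ifit3b had a log2 fold change of -0.49 ± 0.24 (edgeR adjusted p = 0.101). Ifit3 and Ifit3b are near-identical copies, so reads may have been split between them. In RefSeq's annotation the genes lie on chromosome 19 in the order Ifit2, Ifit3, Ifit3b and Ifit1.

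In the ISG15 system, Isg15 rose and the other members did not pass. ISG15 is a ubiquitin-like protein that is attached to other proteins, HERC6 is the ligase that attaches it in mice, and USP18 removes it and also damps signalling from the interferon receptor. Isg15 was at 27.2, 69.5, 71.1 and 55.1 CPM in the CLP libraries and at 18.6, 23, 20.2 and 20.8 CPM in the Sham libraries. No library overlapped between groups, and the log2 fold change was 1.43 ± 0.25 (edgeR adjusted p = 0.00081). Usp18 averaged 40.8 ± 14.7 CPM after CLP against 36.6 ± 5.18 CPM after sham surgery (SD, n = 4) and had a log2 fold change of 0.15 ± 0.23. Herc6 was at 38.8, 66.9, 61.6 and 56.9 CPM in the CLP libraries and at 44.8, 52.5, 60.1 and 56.0 CPM in the Sham libraries. The ranges overlapped, and neither Usp18 nor Herc6 passed (edgeR adjusted p = 0.593 and 0.733).

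Of the OAS family, enzymes and enzyme-like proteins that sense double-stranded RNA, 1 of 5 rose (20%, against 24.9% of all genes). Oasl1 (ENSMUSG00000041827), a family member without the enzyme activity that restrains translation of Irf7 mRNA, was at 150.2, 548, 475 and 552 CPM after CLP and 63.2, 92.2, 74.5 and 77.3 CPM after sham surgery. Even CLP replicate 1 was above every Sham library, and the log2 fold change was 2.49 ± 0.35 (edgeR adjusted p = 0.00018). Its direct neighbour on chromosome 5, Oasl2, which has kept the enzyme activity, averaged 126 ± 48.3 CPM after CLP against 167 ± 24.1 CPM after sham surgery (SD, n = 4). Its log2 fold change of -0.41 ± 0.25 missed the threshold (edgeR adjusted p = 0.19). The synthetases Oas1a, Oas2 and Oas3 had log2 fold changes of 0.21, -0.18 and -0.09 and edgeR adjusted p-values from 0.181 to 0.669. Oas2 was at 352 CPM in Sham replicate 3 and at 162 to 192 CPM in the other Sham libraries. Oas1a has close copies among the Oas1 genes.

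Other antiviral effectors were split, with 3 of 7 higher (42.9%) and 1 lower (14.3%), against 24.9% and 29.5% of all genes. Rsad2 (ENSMUSG00000020641) encodes viperin, which turns CTP into a chain terminator of viral RNA synthesis. It was at 149, 481, 395 and 546 CPM after CLP and 89.4, 142, 101 and 136 CPM after sham surgery, without overlap between the groups (log2 fold change 1.75 ± 0.34, edgeR adjusted p = 0.00145). Cmpk2 (ENSMUSG00000020638), a mitochondrial nucleotide kinase and the next gene to Rsad2 on chromosome 12, moved in the opposite direction. It stood at 11.6, 18.5, 33.9 and 35.5 CPM after CLP and 37.8, 65.7, 52.4 and 57.1 CPM after sham surgery. All CLP values were below all Sham values, with a log2 fold change of -1.10 ± 0.32 (edgeR adjusted p = 0.0138). With no filter on low counts Cmpk2 did not pass (adjusted p = 0.0643).

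Mx2 and Mx1 encode dynamin-like GTPases that block viral replication, although C57BL/6 mice are known to carry alleles of both that give no functional protein. Mx2 rose to 51.4, 86.0, 68.4 and 121 CPM from 25.7, 28.4, 37.9 and 28.2 CPM, with all CLP libraries above all Sham libraries (log2 fold change 1.44 ± 0.24, edgeR adjusted p = 0.00053). Mx1 spread over 36.0, 56.5, 90.7 and 156 CPM in the CLP libraries and 39.3, 58.0, 62.8 and 48.8 CPM in the Sham libraries. It had the widest CLP spread of the 37, a coefficient of variation of 62.0%, and its log2 fold change of 0.70 ± 0.37 missed the threshold (edgeR adjusted p = 0.134). Without CLP replicate 1 the Mx1 log2 fold change was 0.95 and passed (edgeR adjusted p = 0.0233), without CLP replicate 4 it was 0.23 (0.514), and by total counts it was 0.14 (0.755). Isg20, an RNA exonuclease, was low but tightly grouped, at 3.75, 3.82, 5.18 and 4.78 CPM after CLP against 2.60, 2.53, 2.62 and 2.50 CPM after sham surgery. Its groups did not overlap (log2 fold change 0.77 ± 0.19, edgeR adjusted p = 0.00516). Bst2, or tetherin, which holds budding virus at the cell surface, and Rtp4, a regulator of the interferon response, had log2 fold changes of 0.21 ± 0.11 and -0.04 ± 0.17, and neither passed. Bst2 passed as higher only with the correction for GC content (0.35, edgeR adjusted p = 0.0184), a setting under which 16 members were higher and 3 lower, against 29.0% and 25.9% of all genes. By total counts Bst2 passed as lower, at -0.34 (edgeR adjusted p = 0.0191).

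**Figure D2:**
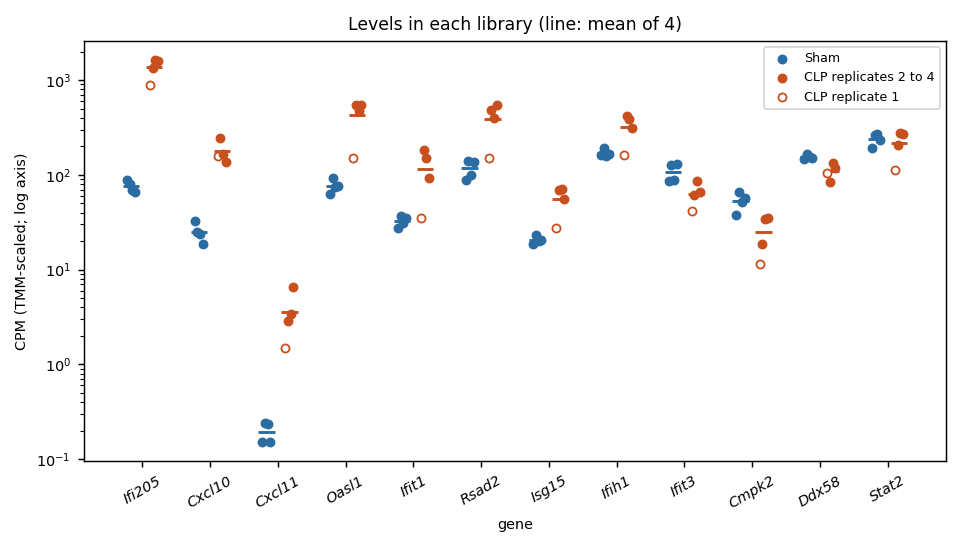
Level of 12 of the genes in every library, in TMM-scaled CPM on a log axis, with Sham in blue, CLP in orange, CLP replicate 1 as an open orange circle and a line at each group's mean of 4. The open circle is the lowest CLP value for 10 of the 12 genes, Cxcl10 and Ddx58 being the exceptions, and lies within the Sham range for Ifit1 and Ifih1.

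Cytosolic nucleic acid sensors also diverged. Ifih1 encodes MDA5 and Ddx58 encodes RIG-I, which recognise different kinds of viral RNA and signal through MAVS. Ifih1 was at 160.3, 421, 384 and 309.6 CPM in the CLP libraries and at 161, 192.5, 158 and 164 CPM in the Sham libraries. The last 3 CLP libraries were above all Sham libraries while CLP replicate 1 was level with them (log2 fold change 0.92 ± 0.25, edgeR adjusted p = 0.00977). Ddx58 fell to 106, 83.6, 135 and 119 CPM from 146, 166, 155 and 150.5 CPM, with no overlap (log2 fold change -0.48 ± 0.14, edgeR adjusted p = 0.0151). Dhx58, which encodes LGP2, a regulator of both, and Zbp1, a sensor of left-handed nucleic acid that can start necroptosis, had log2 fold changes of -0.02 ± 0.20 and -0.11 ± 0.23 and did not pass.

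Of the genes of signal and transcription control, 2 of 4 rose (50%, against 24.9% of all genes). Parp14, an ADP-ribosyltransferase of macrophages, was at 759, 1487, 1628 and 1481 CPM after CLP and 611, 660.1, 714 and 546 CPM after sham surgery (log2 fold change 1.08 ± 0.22, edgeR adjusted p = 0.00174). Trim30a, which restrains NF-kB signalling from Toll-like receptors, was at 362, 626, 752 and 593 CPM after CLP and 321, 342, 342.5 and 315 CPM after sham surgery (0.82 ± 0.19). In both, CLP replicate 1 was only slightly above the highest Sham library. Stat2, the subunit of ISGF3 that activates transcription, was at 114, 206, 275 and 268 CPM in the CLP libraries and 192, 261, 273 and 231 CPM in the Sham libraries. The ranges overlapped, and neither Stat2 (log2 fold change -0.15 ± 0.25) nor Ifi35, an interferon-induced leucine zipper protein (0.20 ± 0.17), passed.

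None of the 4 remaining effectors passed edgeR's test at an adjusted p of 0.05, where 24.9% of all genes rose and 29.5% fell. Ifi27l2a, a small membrane protein, was at 160.0, 109.5, 185 and 147 CPM in the CLP libraries and 140.2, 155, 126 and 188 CPM in the Sham libraries, and the ranges overlapped. Xaf1, which promotes apoptosis, Ifi47, a GTPase that acts on vacuoles of pathogens, and Ifi44 had log2 fold changes of 0.02 ± 0.28, -0.12 ± 0.22 and -0.32 ± 0.16. Their edgeR adjusted p-values ran from 0.11 for Ifi44 to 0.95 for Xaf1. Per kilobase of the longest annotated transcript, Ifi27l2a had the highest Sham level of the 37 at 329 CPM per kb, followed by Ifi204 at 192 and Bst2 at 100.3. After CLP, Ifi205 was first at 417 CPM per kb, followed by Ifi27l2a at 325 and Ifi204 at 296. Differences in this order were not tested.

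The direction of many smaller values depended on the scaling. TMM factors were 0.801 to 0.837 in CLP and 1.16 to 1.28 in Sham, and scaling by total counts alone gave every gene a lower log2 fold change, with a median over all genes of -0.60 in place of -0.04. By total counts 11 members were higher and 16 lower, against 11.7% of all genes higher (1715) and 56.6% lower (8292), where TMM gave 3644 and 4319. The 11 were among the 15 that rose with TMM. Ifi204, Ifih1, Isg20 and Trim30a were the 4 that did not pass as higher, with log2 fold changes of 0.07, 0.36, 0.22 and 0.26. Cmpk2, Ifit3 and Ddx58 were lower with both scalings, at -1.65, -1.31 and -1.03 by total counts. Members called lower by total counts only were 13, among them Stat2 at -0.71, Oasl2 at -0.96 and Ifi44 at -0.87. Herc6, Oas1a and Bst2, whose values were positive with TMM, were also among the 13.

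**Figure D3:**
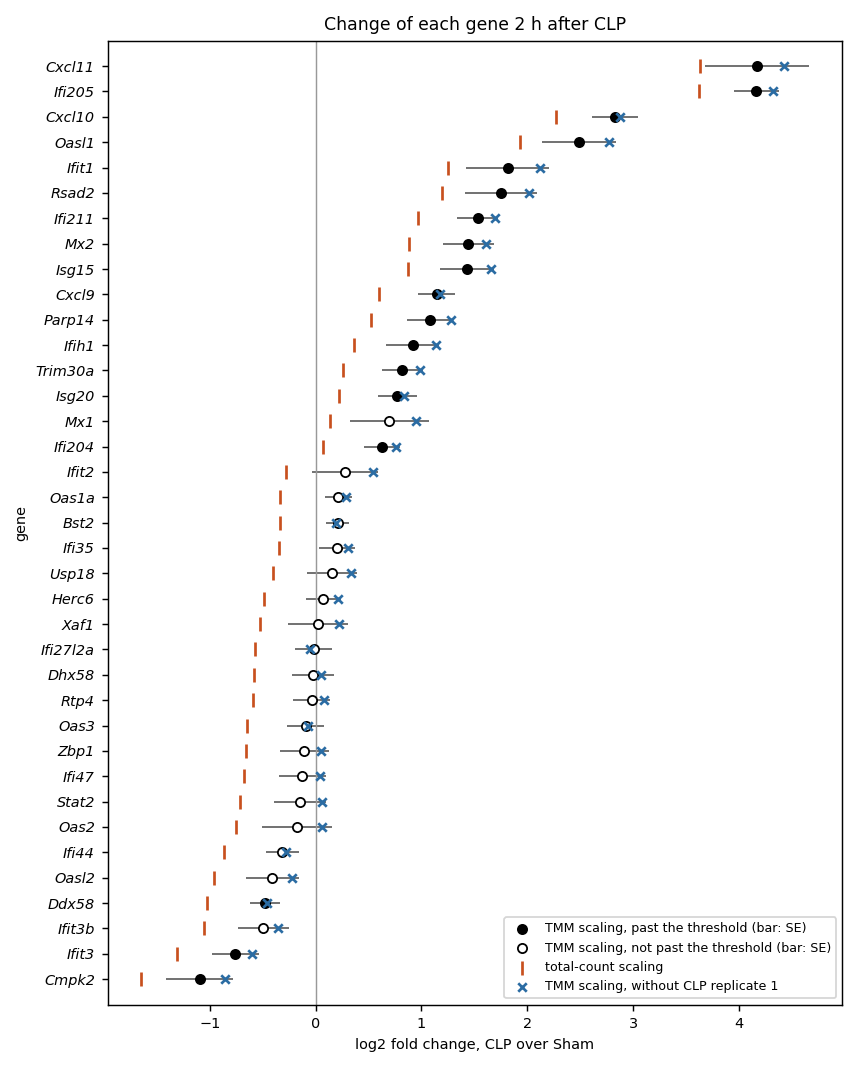
Log2 fold change, CLP over Sham, of each of the 37 genes, as black circles with the SE as a bar (filled where the adjusted p was under 0.05, open where it was not), orange ticks for total-count scaling and blue crosses for the fit without CLP replicate 1. The orange ticks lie to the left of every circle, and 11 of the 15 filled circles on the right keep their call with them.

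In these genes CLP replicate 1 was set off from its group. It was the lowest of the 4 CLP libraries in 29 of 37 members (78.4%) and the highest in 0. Over all genes it was lowest for 37.5% and highest for 36.5%, and it was lowest for 58.5% of all genes that rose. Its log2 level minus that of the mean of the other 3 had a median of -0.81 over the members and -0.03 over all genes. Over the 15 members that rose it was -0.86, against -0.29 over all genes that rose, as a description of this library. Of those 15, CLP replicate 1 was lowest in 14 (93.3%). The gap was widest for Ifit1, at 35.5 CPM against a mean of 141.5 CPM in the other 3, a ratio of 3.99, and for Oasl1 and Rsad2, with ratios of 3.49 and 3.17. It was narrow for Cxcl9 and Cxcl10, with ratios of 1.11 and 1.15. Without this library, 17 members were higher and 3 lower, against 28.0% and 33.1% of all genes. The 15 and the 3 were kept, and Ifit2 and Mx1 were added. The neutrophil marker sum was also lowest among CLP libraries in replicate 1, at 239 CPM against 356 to 582 CPM, and its part in this pattern was not tested.

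Spread within groups is given next, as a description with no test. The members' median coefficient of variation was 29.3% in CLP and 15.2% in Sham, against 14.8% and 10.0% over the 7924 genes with a mean of at least 10 CPM. Among Sham libraries, replicate 2 was the highest in 20 of 37 members and replicate 1 the lowest in 25, while for all genes those shares were 20% and 26.2%. Among CLP libraries, replicate 3 was the highest in 22 of 37 members, against 21% of all genes.

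Interferon transcripts themselves were scarce. Of 20 interferon genes, 0 passed the count filter and 14 had 0 counts in every library. A count of 0 in a library allows up to 3 counts, or 0.0914 to 0.157 CPM, counting error only. Ifnb1, an early type I interferon of macrophages, had 1, 38, 25 and 24 counts in CLP replicates 1 to 4 and 0, 0, 3 and 0 in Sham replicates 1 to 4. CLP replicate 1, the library with 1 Ifnb1 count, was also the lowest CLP library in most members, and whether one bears on the other was not tested. After TMM scaling, the pooled 88 CLP and 3 Sham counts of Ifnb1 gave a ratio of 44.0. Its exact 95% interval, 14.6 to 217, covers counting error only and not the spread between libraries. Without CLP replicate 1 the ratio was 60.5 (20 to 299). All 3 Sham counts came from Sham replicate 3, and without it the lower bound of the ratio was 26.9, with no upper bound. Ifna4 had 11 counts and Ifna2 7 counts in CLP, and both had 0 in Sham. Ifng, the type II interferon made by T and NK cells, had 7 counts in CLP, 5 of them in replicate 4, and 0 in Sham.

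Receptor genes for interferons rose in 3 of 5 cases tested (60%), and 1 fell (20%), against 24.9% and 29.5% of all genes. Ifnar1 rose from 140.1 ± 5.77 to 188 ± 27.7 CPM and Ifnar2 from 143 ± 8.93 to 190 ± 21.1 CPM (SD, n = 4), with log2 fold changes of 0.43 ± 0.12 and 0.41 ± 0.11 (edgeR adjusted p = 0.0114 and 0.00966). By total counts both values were slightly negative, at -0.12 and -0.14, and did not pass. Of the type II interferon receptor, Ifngr2 rose by 0.59 ± 0.15 and Ifngr1 fell from 532 ± 73.5 to 288 ± 89.5 CPM (-0.88 ± 0.21, edgeR adjusted p = 0.00421). Ifngr2 was at 0.05 by total counts and did not pass.

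Signal transducers moved in both directions, 3 of 6 higher (50%) and 2 lower (33.3%), against 24.9% and 29.5% of all genes. Jak2, a kinase of the type II interferon receptor and of many cytokine receptors, rose from 89.4 ± 20.3 to 534 ± 91.8 CPM (2.58 ± 0.19, edgeR adjusted p = 4.1e-06). Stat3, which transmits IL-6 and IL-10 signals, rose by 1.34 ± 0.15 on the log2 scale. Tyk2, a kinase of the type I receptor, had -0.35 ± 0.12 (edgeR adjusted p = 0.0279), and that call was lost with DESeq2's size factors (adjusted p = 0.0638), with DESeq2's test (adjusted p = 0.0589), with the GC correction (0.286) and in 5 of 8 fits that left out 1 library. Irf9 averaged 91.0 ± 8.53 CPM after CLP against 99.4 ± 2.94 CPM and missed the threshold (edgeR adjusted p = 0.29), though by total counts it passed as lower, at -0.68.

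Of 6 interferon regulatory factor genes, 2 rose (33.3%) and 3 fell (50%), against 24.9% and 29.5% of all genes. Irf1, which responds to NF-kB as well as to interferon, was at 456, 495, 415 and 452 CPM after CLP and 178, 209, 152 and 175 CPM after sham surgery (log2 fold change 1.35 ± 0.13, edgeR adjusted p = 1.4e-05). CLP replicate 1 did not stand apart for this gene. Irf7, an amplifier of interferon production that is itself interferon-induced, averaged 630.2 ± 116 CPM after CLP against 621 ± 71.9 CPM (0.02 ± 0.15, edgeR adjusted p = 0.913). By total counts Irf7 passed as lower, at -0.53 (edgeR adjusted p = 0.0105). Irf2, a repressor of interferon responses, and Irf3, which starts Ifnb1 transcription, fell by 1.00 and 0.58 on the log2 scale. Irf8 had 0.38 ± 0.12 (edgeR adjusted p = 0.0208), a value that was -0.17 by total counts, and its call was lost without CLP replicate 4 (adjusted p = 0.0539) and with no filter on low counts (0.0712).

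In the pathway that leads to interferon production, 5 of 12 genes rose (41.7%) and 4 fell (33.3%). Over all genes those shares were 24.9% and 29.5%. Ticam1 encodes TRIF, the adaptor through which TLR3 and TLR4 reach the kinase TBK1. Ticam1 rose from 20.6 ± 2.72 to 60.2 ± 3.57 CPM (1.54 ± 0.12, edgeR adjusted p = 5e-06) and Tbk1 from 108.5 ± 12.3 to 254.5 ± 40.2 CPM (1.23 ± 0.14). Mavs, the adaptor of RIG-I and MDA5, fell from 71.0 ± 6.40 to 21.8 ± 8.37 CPM (-1.70 ± 0.22, edgeR adjusted p = 0.00012), and Tlr9, a receptor for bacterial DNA, fell by 1.10. Genes that restrain the response rose in 4 of 7 cases (57.1%) and fell in 3 (42.9%), beside the same all-gene shares. Socs3, a feedback inhibitor of JAK kinases at cytokine receptors, rose from 170.3 ± 96.5 to 2553 ± 321 CPM (3.91 ± 0.35), and Ptpn2, a phosphatase of JAK and STAT proteins, by 1.74 ± 0.13. The phosphatase Ptpn6 and the mitochondrial regulator Nlrx1 fell by 0.78 and 1.39.

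A further list of 51 interferon-stimulated genes outside the 37, 50 of them tested, gave 9 higher and 13 lower. The median log2 fold change of the list was -0.06. Those shares are 18% and 26%, beside 24.9% and 29.5% of all genes. Helz2, a helicase and nuclear receptor coactivator, rose from 1578 ± 78.8 to 4267 ± 383 CPM (1.44 ± 0.12), and Ifi207 had 0.93 ± 0.11. Aim2, a DNA sensor of the IFI200 family that forms an inflammasome, fell by 1.17, and Tnfsf10, the death ligand TRAIL, fell from 19.2 ± 4.06 to 5.57 ± 1.82 CPM.

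**Figure D4:**
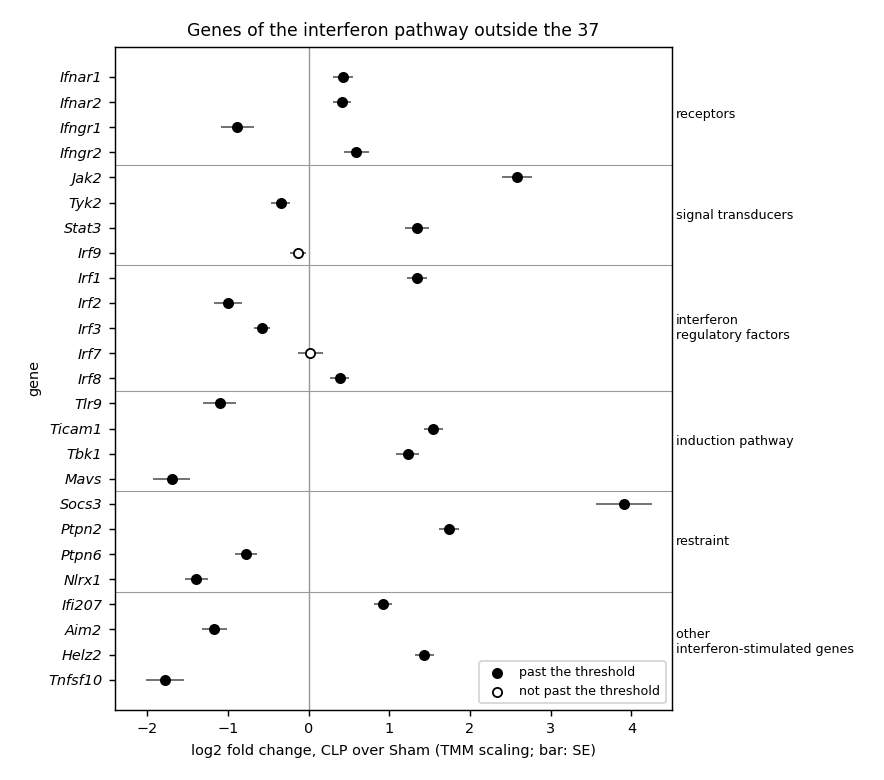
Log2 fold change, CLP over Sham, with the SE as a bar, of 25 tested genes of the interferon pathway outside the 37, grouped by role, filled where the adjusted p was under 0.05. Values run from -1.78 for Tnfsf10, of the further list, to 3.91 for Socs3, while Irf7 and Irf9 are open. Apart from Ifnar1, Ifnar2, Irf9, Irf7 and Irf1, the genes were picked for the smallest p in each direction. Filled circles on both sides of 0 therefore follow from that choice.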

How the data were processed

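Read counts per gene, as deposited by the authors, were used for 8 libraries, 4 CLP and 4 Sham, grouped by their titles. Per the submitters' processing notes the tools were FastQC, STAR 2.7.10b, featureCounts and DESeq2, and the build was mm39. The counting's strand setting and annotation release are not stated in those notes. A symbol was found for 52081 IDs in GENCODE M21. Members, lists and tests were chosen with earlier results of these data known. After edgeR's default filter on low counts (filterByExpr), TMM scaling was applied and edgeR 4.0.16 ran the test (robust quasi-likelihood, surgery as the only term, R 4.3.3), with Benjamini-Hochberg adjustment over 14655 genes. The SE is the absolute log2 fold change over the square root of F. All members were named; values in every library are given for each member past the threshold and the member with the highest mean CPM in each role group. Of the pathway lists the named genes are Ifnb1, Ifng, Ifnar1, Ifnar2, Irf9, Irf7, Irf1 and the 2 with the smallest p in each direction in each list, and 1 further gene is not reported here. Promoters are those of the 2 largest rises and falls with at least 10 CPM. Alternatives were DESeq2 1.42.0, its size factors, limma 3.58.1 voom, total-count scaling, no filter, a GC correction, a replicate block and each library left out; member counts without the gene that passed the filter through CLP only were added after seeing the data. The promoter sequences are from RefSeq, GRCm38.p6, and are matched by symbol, for 26 of 37 members.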

Additional observations from a re-analysis of the deposited data

Results flagged for a closer look

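Among 130 groups of 4 libraries, from 65 genes, 6 held a library set apart from the other 3 by more than Dixon's 95% limit, where chance flags about 1 in 20. In CLP replicate 1, Ifit2 was at 91.0 CPM, against 263 to 271 CPM in the other CLP libraries, and Parp14 was at 759 CPM, against 1481 to 1628 CPM. In Sham replicate 3, Oas2 was at 352 CPM against 162 to 192 CPM, Cxcl9 was at 15.4 CPM against 26.3 to 28.5 CPM, and Ifnb1 was at 0.101 CPM from 3 counts where the other Sham libraries had 0. Ifi35 was at 32.7 CPM in Sham replicate 1 and at 39.1 to 39.7 CPM in the other Sham libraries.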

How the results depend on the processing

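The counts of 15 members higher and 3 lower stayed within 1.5 times under every alternative but total-count scaling, which gave 11 higher and 16 lower, and 1715 genes higher and 8292 lower among all genes. Without Cxcl11, an alternative chosen after seeing the data, 14 were higher and 3 lower. Leaving out each library in turn gave 15 to 17 members higher and 3 lower in every case, with 3244 to 4235 genes higher and 3716 to 4997 lower among all genes, and the 15 and 3 members called were kept each time. Over all genes, deviations of same-numbered CLP and Sham libraries correlated at -0.125 to 0.172. Of the CLP libraries, 0 of 4 correlated best with their own number. In the members, replicate 1 was most often the lowest library in both groups (29 of 37 in CLP, 25 of 37 in Sham). Whether the numbers mark pairs cannot be settled from these values, and no label states it. The fit with the replicate block gave 15 members higher and 3 lower, and 3491 genes higher and 4303 lower.

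Sign changes touched only values that had not passed, apart from Ifnar1, Ifnar2 and Irf8, and the cause was not tested. With total-count scaling the log2 fold changes were -0.28 for Ifit2, -0.40 for Usp18, -0.49 for Herc6, -0.34 for Oas1a, -0.34 for Bst2, -0.35 for Ifi35, -0.53 for Xaf1, -0.12 for Ifnar1, -0.14 for Ifnar2, -0.53 for Irf7 and -0.17 for Irf8. With DESeq2's size factors in edgeR and with DESeq2's own test they were 0.02 and 0.0048 for Rtp4, 0.04 and 0.02 for Dhx58, and 0.04 and 0.02 for Ifi27l2a. With the GC correction, without and with the replicate block, they were 0.04 and 0.03 for Oas3, 0.05 and 0.01 for Rtp4, 0.10 and 0.07 for Dhx58, and 0.09 and 0.09 for Ifi27l2a. Xaf1 was at -0.08 with limma voom, -0.04 with no filter, -0.08 with the replicate block and -0.0027 with the block and the GC correction, and Irf7 was at -0.03 with no filter. Over the fits that left out 1 library, signs were mixed in 12 genes that did not pass, with ranges of -0.19 to 0.13 for Dhx58, -0.02 to 0.21 for Herc6, -0.13 to 0.11 for Ifi27l2a, -0.28 to 0.04 for Ifi47, -0.39 to 0.12 for Oas2, -0.21 to 0.04 for Oas3, -0.22 to 0.08 for Rtp4, -0.29 to 0.06 for Stat2, -0.05 to 0.33 for Usp18, -0.24 to 0.22 for Xaf1, -0.28 to 0.05 for Zbp1 and -0.07 to 0.14 for Irf7. A further gene that did not pass, Ifi209, ran from -0.10 to 0.28 over the fits that left out 1 library. It was at -0.02 with limma voom and with the replicate block, and at -0.49 by total counts. Counts of under 10 per library limit Cxcl11 and Ifnb1 in Sham, and every other interferon gene in both groups.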
